A study of Mus musculus with 12 samples.

Results

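The 9 genes described here encode secreted or membrane-anchored metalloproteinases that cut extracellular matrix and growth factor proteins: Adamts1, Adamts2, Adamts4, Adamts5, Adamts9, Adamts14, Adamts15, Adam12 and Adam19. They are 9 of the 24147 genes in the count files, were picked by name with earlier results of these data known, and were read from the rows that carry exactly these symbols. No cut-off value accompanied the choice, so there are no members just inside or outside a threshold. All 9 were among the 14560 genes that passed the filter on low counts, although Adamts14 had at most 4 counts in any 0 h library and passed through the 48 h libraries.

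The libraries came from a mouse model of cataract surgery, in which the fibre cells were taken out of the lens through the cornea and the capsule with its attached lens epithelial cells was collected. The 4 groups, each of 3 libraries, were fibronectin conditional knockout (FNcKO) capsules 48 h after surgery, FNcKO capsules at 0 h, wild-type (WT) capsules 48 h after surgery and WT capsules at 0 h. All mice were 2-month-old adults and all were operated on. FNcKO mice were of a mixed C57BL/6, 129 and FVB/N background and WT mice were C57BL/6, so the conditional knockout and the strain background cannot be told apart. Neither the Cre driver, nor the deleted part of Fn1, nor the number of animals or lenses behind a library is stated in the labels. The design text calls the replicates biological triplicates. The study asked how lens epithelial cells respond to surgery and what fibronectin, the glycoprotein encoded by Fn1, does in that response.

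Library totals lay between 8368160 and 10862573 counts. Fn1 stood at 146, 297 and 687 CPM in FNcKO 48 h, at 16.8, 9.80 and 8.31 CPM in FNcKO 0 h, at 1513, 527 and 978 CPM in WT 48 h and at 18.9, 23.0 and 15.5 CPM in WT 0 h (CPM, the read count per library size after trimmed-mean scaling). One FNcKO 48 h library was therefore above the lowest WT 48 h library, and since the deleted part is unknown, counts over the whole gene do not show how much transcript was inactivated. Markers of lens epithelium were present in all libraries, with 0 of 8 at zero in any group. They summed to 11784 to 81713 CPM in FNcKO 48 h, 96859.98 to 213518 CPM in FNcKO 0 h, 13114 to 48379 CPM in WT 48 h and 87141 to 145206 CPM in WT 0 h. Most of each sum came from the crystallin genes Cryaa and Cryab, so the sums follow the crystallin share given below. Cryaa alone averaged 39094 CPM in FNcKO 48 h, 109555 in FNcKO 0 h, 26850 in WT 48 h and 88073 in WT 0 h. Pax6 averaged 355, 514, 372 and 455 CPM in the same order. Of the 8, 3 were called lower at 48 h in each genotype (median log2 fold change -1.22 in FNcKO and -1.38 in WT) and 1 had a positive value. Marker genes of other cells also changed with time: the 6 neutrophil markers found in the files summed to 41.1 to 110 CPM in FNcKO 48 h, 3.80 to 4.73 CPM in FNcKO 0 h, 58.9 to 343 CPM in WT 48 h and 4.81 to 10.2 CPM in WT 0 h. Mpo and Elane, which define immature neutrophils, had at most 1 count each over the 3 libraries of any group. The 8 macrophage and monocyte markers summed to 91.6 to 205 CPM in FNcKO 48 h, 39.3 to 80.7 CPM in FNcKO 0 h, 150.4 to 377 CPM in WT 48 h and 48.6 to 127 CPM in WT 0 h, with none at 0. Of 7 vascular endothelium markers, 4 were called higher and 1 lower at 48 h in FNcKO and 3 higher and 0 lower in WT, with sums of 21.6 to 49.97 CPM in FNcKO 48 h, 19.3 to 32.3 CPM in FNcKO 0 h, 44.3 to 74.7 CPM in WT 48 h and 26.96 to 47.4 CPM in WT 0 h. The 4 retina markers summed to 225 to 2859 CPM in FNcKO 48 h and 954 to 3559 CPM in FNcKO 0 h. In WT they summed to 1014 to 2811 CPM at 48 h and 1705 to 5301 CPM at 0 h, with none called over time. Fibroblast and keratocyte markers summed to 40.4 to 226, 201 to 373, 77.5 to 156 and 253 to 492 CPM in the same group order. Pericyte and smooth muscle sums lay between 91.7 and 178 CPM and corneal epithelium sums between 2.07 and 40.7 CPM. The part of these marker lists in the results on the proteases was not tested. In such bulk tissue, fewer cells of a type and less RNA per cell cannot be told apart. Crystallin transcripts, abundant in fibre cells and summed over 16 genes, made up 11.9%, 7.22% and 1.47% of counts in FNcKO 48 h, 16.1%, 13.9% and 24.7% in FNcKO 0 h, 1.79%, 7.43% and 5.93% in WT 48 h and 20.2%, 12.9% and 15.05% in WT 0 h, so that FNcKO 48 h replicate 3 and WT 48 h replicate 1 stood apart.

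ADAMTS proteases are secreted, carry thrombospondin repeats that hold them in the matrix, and are switched on when a furin-like convertase removes their propeptide. Adamts1, Adamts4, Adamts5, Adamts9 and Adamts15 are proteoglycanases that cut versican and aggrecan. Adamts2 and Adamts14 remove the aminopropeptide of fibrillar procollagens, a step before collagen fibrils assemble. Adam12 and Adam19 sit in the cell membrane and release growth factors and binding proteins, and TIMP3 is the main tissue inhibitor of several ADAMTS enzymes. In the lens, relatives of this family are known for the zonular fibres: in humans, ADAMTSL4, ADAMTS10 and ADAMTS17 are linked to lens dislocation.

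The promoter stretches of Adamts1, Adamts14 and Adamts2 are shown because Adamts1 and Adamts14 had the higher 48 h levels described further on, while Adamts2 is the procollagen proteinase with the same known activity as Adamts14 and had overlapping levels at the 2 times. Each runs 5′ to 3′ over the 250 bases before the RefSeq start (GRCm38.p6): chr16:85803114-85803363 on the minus strand for Adamts1, chr10:61273420-61273669 on the minus strand for Adamts14 and chr11:50601835-50602084 on the plus strand for Adamts2. Capitals mark a TATA box, the letters TATAAA.
Adamts1: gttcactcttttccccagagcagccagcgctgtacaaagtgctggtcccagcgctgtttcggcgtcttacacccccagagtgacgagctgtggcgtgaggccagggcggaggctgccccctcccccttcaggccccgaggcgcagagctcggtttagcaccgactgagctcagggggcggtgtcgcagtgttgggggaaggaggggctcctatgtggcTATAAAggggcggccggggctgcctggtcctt
Adamts14: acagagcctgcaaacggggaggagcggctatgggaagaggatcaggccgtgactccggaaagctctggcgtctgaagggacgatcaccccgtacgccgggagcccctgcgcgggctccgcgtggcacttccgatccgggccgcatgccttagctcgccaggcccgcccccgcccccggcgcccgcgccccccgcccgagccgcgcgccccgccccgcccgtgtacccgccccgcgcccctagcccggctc
Adamts2: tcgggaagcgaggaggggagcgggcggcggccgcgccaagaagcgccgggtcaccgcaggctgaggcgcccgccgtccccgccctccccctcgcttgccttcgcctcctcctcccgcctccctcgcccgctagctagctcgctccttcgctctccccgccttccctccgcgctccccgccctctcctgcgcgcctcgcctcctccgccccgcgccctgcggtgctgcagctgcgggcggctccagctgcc
The Adamts1 stretch held TATAAA once, starting 32 bases before the start, and 65.6% of its bases were G or C. The stretches of Adamts14 and Adamts2 had 76.4% and 78.0% G or C with 35 and 34 CpG dinucleotides and none of the motifs searched, against a median of 52.4% G or C and 6 CpG over all 32851 promoter stretches of the same length. The motifs were read on both strands, and the share of all stretches with each was 12.4% for TATAAA, 6.75% for the AP-1 site TGANTCA, 1.55% for the CRE TGACGTCA, 12.6% for the TEAD site GGAATG, 33.8% for CCAAT and 1.47% for the CArG box. Of the 9 genes, 5 had an entry in the RefSeq promoter table, with 7 promoter stretches in all. One of 3 Adam19 stretches, chr11:46055734-46055983 on the plus strand, held an AP-1 match starting 131 bases and a TEAD match starting 32 bases before the start, the other two Adam19 stretches held none, and the Adamts9 stretch held none. Adamts4, Adamts5, Adamts15 and Adam12 had no entry.

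The genes lay on 7 chromosomes of mm10. Adamts1 (chr16:85793828-85803115, minus strand) and Adamts5 (chr16:85858157-85901125, minus strand) were neighbours with 55041 bases between them. The others were Adamts2 (chr11:50602085-50807573, plus), Adamts4 (chr1:171250422-171259922, plus), Adamts9 (chr6:92772699-92901441, minus), Adamts14 (chr10:61197112-61273438, minus), Adamts15 (chr9:30899155-30922452, minus), Adam12 (chr7:133883199-134225097, minus) and Adam19 (chr11:46054502-46147347, plus). Counts referred to whole genes, and no source here states the strand setting of the counting. The Adam19 interval contained the entry Mir8100, and the intervals of the other 8 genes overlapped no other entry of the files.

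Among the proteoglycanases, Adamts1 changed most with time. Adamts1 was first described in mice as a gene induced by inflammatory stimuli. It was measured at 56.1, 67.2 and 89.6 CPM in the FNcKO 48 h libraries, against 15.6, 20.6 and 10.3 CPM in the FNcKO 0 h libraries. In WT it stood at 259, 128 and 88.5 CPM at 48 h, against 19.8, 27.3 and 19.5 CPM at 0 h. Every 48 h library was above every 0 h library in both genotypes, and WT 48 h replicate 1 was the highest of all 12. The log2 fold change (48 h over 0 h) was 2.19 (SE 0.38) in FNcKO and 2.83 (SE 0.38) in WT, that is 4.55-fold and 7.13-fold higher. The same WT library also had the highest neutrophil, macrophage and leukocyte marker sums of its group, at 343, 377 and 205 CPM.

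Adamts5, the main aggrecanase of mouse cartilage and the genomic neighbour of Adamts1, had lower means at 48 h. It stood at 82.0, 69.2 and 76.1 CPM in FNcKO 48 h, against 127, 131 and 91.4 CPM in FNcKO 0 h. In WT it stood at 119, 60.2 and 48.7 CPM at 48 h, against 104, 95.6 and 117 CPM at 0 h. The FNcKO groups did not overlap, with 48 h lower, while in WT the first 48 h library was higher than all of the 0 h libraries. The log2 fold change was -0.62 (SE 0.27) in FNcKO and -0.47 (SE 0.27) in WT, and neither passed the threshold, an edgeR p under 0.05 after Benjamini-Hochberg adjustment over all tested genes. Without WT 48 h replicate 1, both passed as lower with edgeR, at -0.62 in FNcKO (adjusted p = 0.0204; range over all alternatives 0.0204 to 0.417) and -0.95 in WT (adjusted p = 0.0050; range 0.0050 to 0.572). That library is outside the FNcKO comparison. The FNcKO value did not move, and its SE went from 0.27 to 0.175 because the spread is estimated over all libraries. Per kilobase of gene length, the ratio of Adamts1 to Adamts5 was 1.57 ± 0.412 in FNcKO 48 h, 0.218 ± 0.0391 in FNcKO 0 h, 3.39 ± 0.326 in WT 48 h and 0.356 ± 0.104 in WT 0 h (SD, n = 3 each). Adamts1 was thus the lower of the neighbours in all 6 of the 0 h libraries and the higher in all 6 of the 48 h libraries.

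Adamts4, another aggrecanase and versicanase, was abundant throughout. It had 154, 190.2 and 92.6 CPM in FNcKO 48 h and 109, 98.6 and 65.2 CPM in FNcKO 0 h. It had 63.1, 101.01 and 106 CPM in WT 48 h and 75.5, 84.3 and 92.9 CPM in WT 0 h. Both pairs of groups overlapped, and the log2 fold change of 0.68 (SE 0.27) in FNcKO and 0.10 (SE 0.27) in WT did not pass. Without FNcKO 48 h replicate 3, the FNcKO value was 0.92 and passed with edgeR (adjusted p = 0.0256; range over all alternatives 0.0128 to 0.307).

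Adamts9, a versican-cleaving protease with roles in eye and vessel development in mice, had 21.3, 14.2 and 31.4 CPM in FNcKO 48 h and 13.7, 16.7 and 14.8 CPM in FNcKO 0 h. It had 29.7, 27.8 and 18.8 CPM in WT 48 h and 17.6, 30.6 and 19.9 CPM in WT 0 h. The groups overlapped in both genotypes, with log2 fold changes of 0.56 (SE 0.30) in FNcKO and 0.16 (SE 0.29) in WT that did not pass. The annotation of the reference used for sequences extends Adamts9 to position 92943492, beyond the interval of the count files.

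Adamts15, a versicanase, was the lowest of the proteoglycanases among the 9 genes. It had 4.96, 5.24 and 3.49 CPM in FNcKO 48 h and 4.02, 4.84 and 3.15 CPM in FNcKO 0 h. It had 2.57, 3.69 and 2.70 CPM in WT 48 h and 5.41, 4.58 and 5.78 CPM in WT 0 h. The WT groups did not overlap, with 48 h lower, and the FNcKO groups did. The log2 fold changes of 0.18 (SE 0.34) in FNcKO and -0.81 (SE 0.34) in WT did not pass.

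Of the procollagen proteinases among the 9 genes, Adamts14 passed the threshold at 48 h and Adamts2 did not. Adamts14 was close to undetected at 0 h, with 2, 1 and 0 counts in the FNcKO 0 h libraries and 4, 2 and 1 counts in the WT 0 h libraries. At 48 h it had 145, 218 and 320 counts in FNcKO (15.3, 23.8 and 33.8 CPM) and 214, 36 and 232 counts in WT (20.3, 3.50 and 24.0 CPM). Every 48 h library lay above every 0 h library, and WT 48 h replicate 2 was the lowest of the 48 h libraries. The ratio of summed counts over summed scaled library sizes, 48 h over 0 h, was 199 in FNcKO (95% exact interval 67.9 to 969, 683 against 3 counts) and 63.5 in WT (30.6 to 159, 482 against 7 counts). These intervals cover counting error only, not the spread between libraries. The fitted log2 fold changes, 7.496 (SE 0.90) in FNcKO and 5.93 (SE 0.80) in WT, depend on so few 0 h counts.

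Adamts2 was measured at 9.71, 12.004 and 11.2 CPM in FNcKO 48 h and 8.83, 7.96 and 9.89 CPM in FNcKO 0 h. In WT it was measured at 12.1, 8.64 and 32.8 CPM at 48 h and at 10.8, 16.1 and 18.5 CPM at 0 h. The third WT 48 h library was well above the other 11, and the 48 h and 0 h groups overlapped in both genotypes. Log2 fold changes were 0.30 (SE 0.41) in FNcKO and 0.23 (SE 0.39) in WT and did not pass. Without WT 48 h replicate 3, the WT value was -0.54. Per kilobase, Adamts14 stood at 3.84 ± 1.30 times the level of Adamts2 in FNcKO 48 h, 0.0232 ± 0.0222 in FNcKO 0 h, 1.65 ± 1.16 in WT 48 h and 0.0328 ± 0.0283 in WT 0 h (SD, n = 3 each).

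Both membrane ADAMs among the 9 genes had higher means at 48 h, and Adam12 passed the threshold. Adam12, which sheds HB-EGF and whose soluble form cuts IGF-binding proteins, had 62.2, 174 and 181 CPM in FNcKO 48 h, against 6.82, 10.96 and 16.9 CPM in FNcKO 0 h. It had 193, 68.9 and 220.2 CPM in WT 48 h, against 5.71, 7.95 and 11.4 CPM in WT 0 h. The 48 h libraries spread over about the same range in both genotypes and none overlapped the 0 h libraries. The log2 fold change was 3.597 (SE 0.56) in FNcKO and 4.27 (SE 0.57) in WT, 12.1-fold and 19.3-fold.

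Adam19, which processes neuregulin, was measured at 1.16, 2.95 and 9.51 CPM in FNcKO 48 h and at 0.447, 1.61 and 2.72 CPM in FNcKO 0 h. In WT it was measured at 19.0, 5.34 and 4.25 CPM at 48 h and at 1.70, 2.34 and 2.29 CPM at 0 h. The WT groups did not overlap, the FNcKO groups did, and 1 library stood high in each 48 h group. The log2 fold change of 1.53 (SE 0.82) in FNcKO did not pass, nor did that of 2.172 (SE 0.79) in WT. The WT value passed under 9 of 23 alternatives (adjusted p from 0.0166 to 0.813 over all 23), among them leaving out FNcKO 0 h replicate 1 (0.0450), FNcKO 48 h replicate 1 (0.0299) or 3 (0.0240), or WT 48 h replicate 2 (0.0462) or 3 (0.0412). The FNcKO libraries are outside the WT comparison and bear on it only through the shared fit. The values rested on the high libraries: without WT 48 h replicate 1 the WT value was 1.19 (adjusted p = 0.279), and without FNcKO 48 h replicate 3 the FNcKO value was 0.39.

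**Figure D1:**
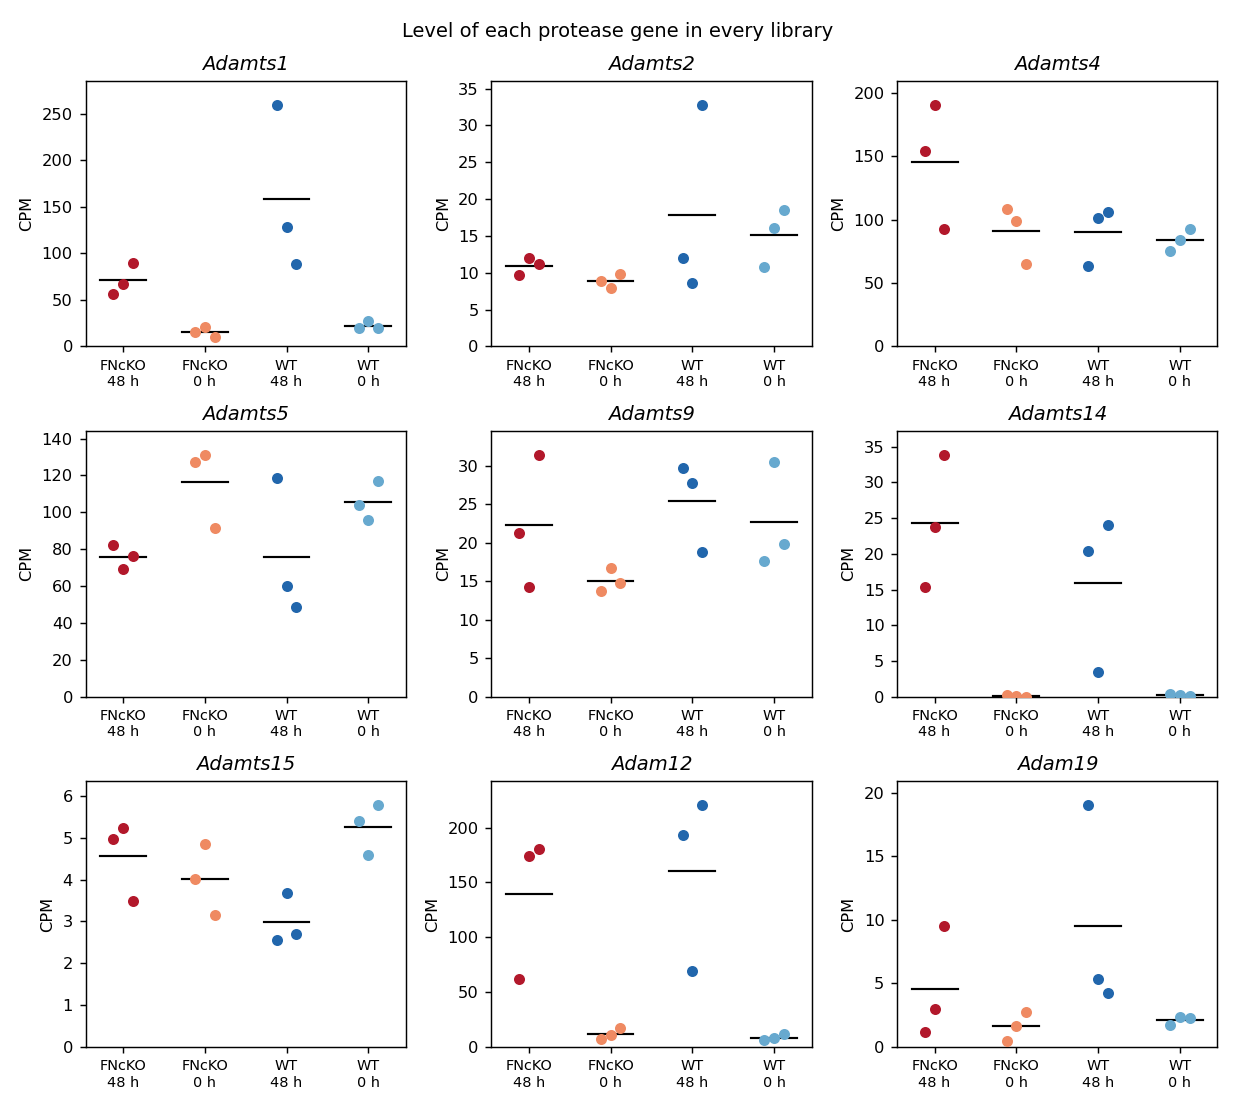
Level of each of the 9 genes in every library, in CPM on linear axes that start at 0, with 1 panel a gene. Points are the 3 libraries of a group and the line is their mean: Adamts1, Adamts14 and Adam12 were higher in all 48 h libraries of both genotypes, and Adamts1 reached 259 CPM in 1 WT 48 h library.

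Over the set, 3 of 9 genes were higher at 48 h and 0 were lower in FNcKO by edgeR's quasi-likelihood test at an adjusted p under 0.05 (background 14.9% of all tested genes higher and 9.9% lower, 24.8% called). In WT, 3 of 9 were higher and 0 lower (background 19.1% higher and 13.5% lower, 32.6% called). In both, the 3 were Adamts1, Adamts14 and Adam12. At an unadjusted p under 0.05, 4 genes were higher in each genotype, with Adamts4 added in FNcKO and Adam19 in WT, and DESeq2 called 3 higher in FNcKO and 4 in WT. At that level 1 gene was lower in FNcKO (Adamts5) and 1 in WT (Adamts15), and DESeq2 called 0 lower in either. Of all 14560 tested genes, 5413 in FNcKO and 6332 in WT had an unadjusted p under 0.05 in either direction. Over all genes of the count files, DESeq2 called 4256 in FNcKO and 5299 in WT in either direction. The median log2 fold change of the 9 was 0.68 in FNcKO and 0.23 in WT, beside 0.00 and 0.02 over all tested genes. For 4 of 9 genes in FNcKO (background 37.5%) and 5 of 9 in WT (background 51.5%), the ranges of the 48 h and 0 h libraries were separate. Because the genes were picked with such values known, these counts describe them and nothing is read from them.

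**Figure D2:**
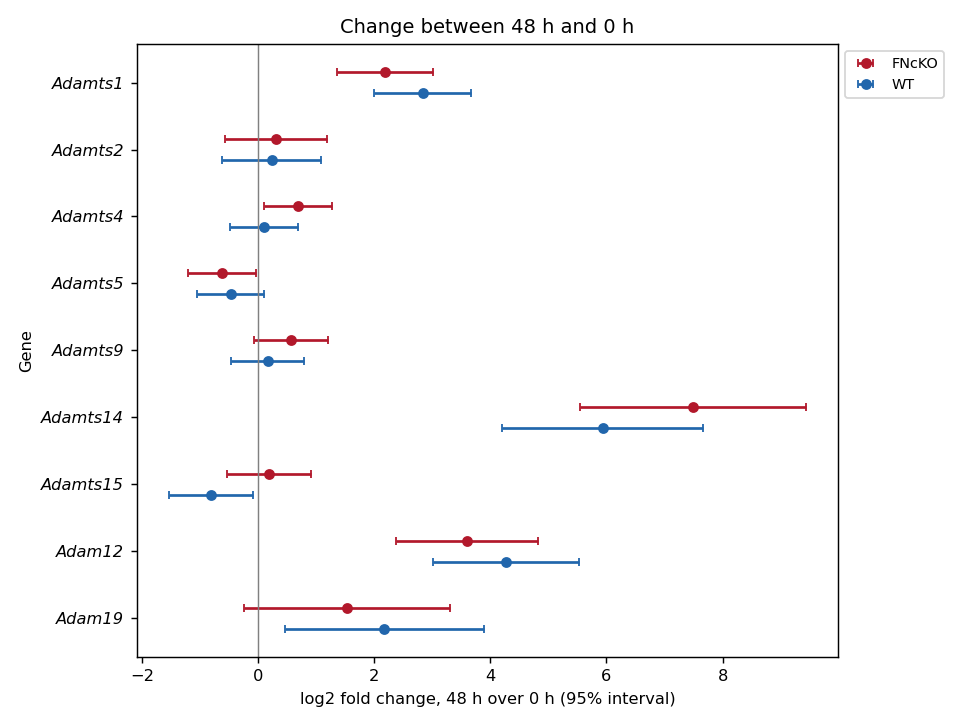
Log2 fold change between 48 h and 0 h of each gene (horizontal axis) in FNcKO and in WT, with bars for the 95% interval from the fit over 12 libraries. In both genotypes Adamts1, Adamts14 and Adam12 lay to the right of zero, from 2.19 to 7.496 in FNcKO and from 2.83 to 5.93 in WT.

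Levels of different genes were compared per kilobase of the length given in the files. Adamts4 was the highest of the 9 in FNcKO 48 h, with 39.6 ± 13.4 CPM per kb, in FNcKO 0 h with 24.7 ± 6.20 and in WT 0 h with 22.9 ± 2.37 (SD, n = 3 each). In WT 48 h, Adamts1 had the highest mean, 32.5 ± 18.3 CPM per kb, ahead of Adamts4 with 24.5 ± 6.42 and Adam12 with 20.9 ± 10.5, but the libraries of each overlapped those of the next. In FNcKO 48 h the order was Adamts4, Adam12 (18.1 ± 8.67), Adamts1 (14.5 ± 3.49), Adamts5 (9.35 ± 0.793), Adamts14 (4.68 ± 1.78), Adamts9 (3.69 ± 1.43), Adamts2 (1.21 ± 0.128), Adamts15 (0.770 ± 0.159) and Adam19 (0.704 ± 0.682). Neighbours in that order overlapped for Adam12 with Adamts1, Adamts14 with Adamts9, and Adamts15 with Adam19. At 0 h the order began with Adamts4, Adamts5, Adamts1 and Adamts9 in both genotypes and ended with Adamts14, at 0.0218 ± 0.0215 CPM per kb in FNcKO and 0.0466 ± 0.0278 in WT. At 0 h the libraries of Adamts1 overlapped those of Adamts9 in both genotypes.

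The summed level per kilobase of the 9 genes was also divided by role, and proteases outside the 9 are not part of it. The 5 proteoglycanases held 73.8% ± 10.3 of this sum in FNcKO 48 h and 93.9% ± 3.26 in FNcKO 0 h. In WT they held 72.8% ± 12.6 at 48 h and 93.6% ± 1.15 at 0 h. Their own summed level was 68.0 ± 9.30 CPM per kb in FNcKO 48 h and 45.5 ± 9.83 in FNcKO 0 h. It was 71.1 ± 17.3 CPM per kb in WT 48 h and 45.1 ± 3.49 in WT 0 h. The lower share at 48 h thus went with a higher mean level. The membrane ADAMs held 19.8% ± 8.67 in FNcKO 48 h, 3.96% ± 2.67 in FNcKO 0 h, 22.2% ± 9.28 in WT 48 h and 2.90% ± 0.621 in WT 0 h. Adamts2 and Adamts14 together held 6.35% ± 1.86 in FNcKO 48 h, 2.15% ± 0.636 in FNcKO 0 h, 5.03% ± 3.40 in WT 48 h and 3.52% ± 0.545 in WT 0 h (SD, n = 3 each). Of the summed level of Adam12 and Adam19, most came from Adam12. It stood at 36.8 ± 18.2 times Adam19 in FNcKO 48 h and 7.91 ± 4.25 times in FNcKO 0 h. In WT it stood at 21.0 ± 19.6 times at 48 h and 3.29 ± 0.790 times at 0 h. Adam9 and Adam10, outside the 9 genes, averaged 209 and 157 CPM in FNcKO 48 h and 207 and 155 CPM in FNcKO 0 h. In WT they averaged 184 and 173 CPM at 48 h and 167 and 148 CPM at 0 h.

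**Figure D3:**
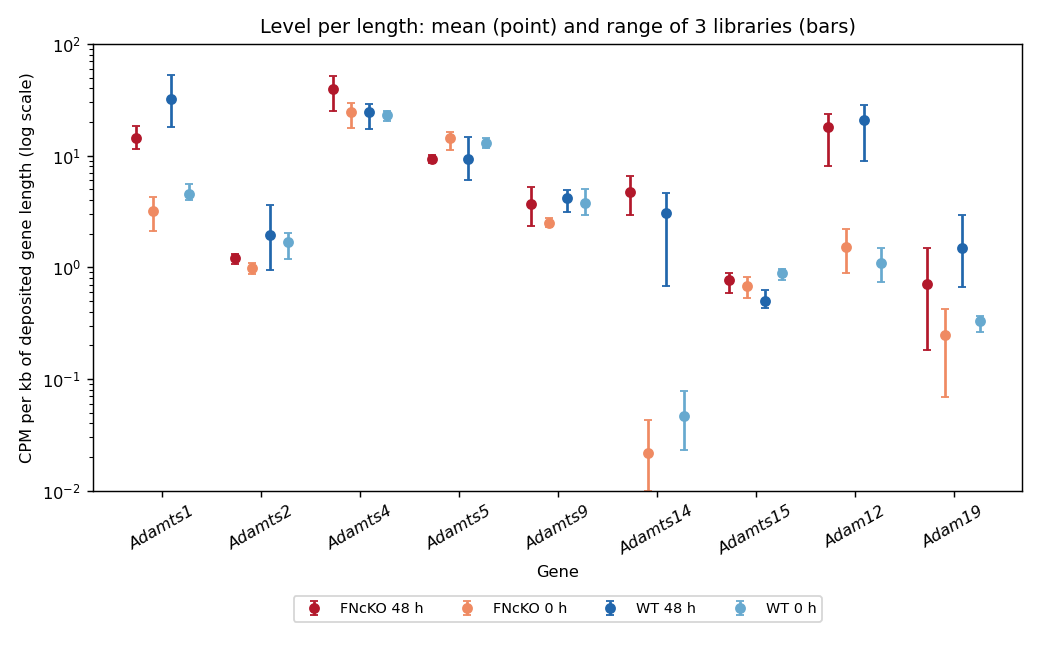
Level per kilobase of gene length (CPM per kb, log axis) of each gene in the 4 groups, with the mean of 3 libraries as a point and their lowest and highest as bars. Adamts4 and Adamts5 were high in all groups, and Adamts14 was the lowest at 0 h, where the FNcKO bar runs off the axis because 1 library had 0 counts.

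Between genotypes, none of the 9 genes passed the threshold at either time. Markers of pigment cells moved with genotype at 48 h: they summed to 17.3 to 62.5 CPM in FNcKO 48 h, 139 to 164 CPM in FNcKO 0 h, 169 to 435 CPM in WT 48 h and 197 to 272 CPM in WT 0 h, and 3 of 6 were called lower in FNcKO than in WT at 48 h (median log2 fold change -3.25, none of the 6 at 0). Their part in the genotype values was not tested. At 48 h, 0 of 9 were called in FNcKO against WT by edgeR (background 0.24% of all tested genes, 0.0412% higher and 0.199% lower) and 0 by DESeq2, and 2 had an unadjusted p under 0.05, Adamts1 lower and Adamts4 higher in FNcKO. Of all 14560 tested genes, 796 had an unadjusted p under 0.05 there, and DESeq2 called 119 over all genes. Adamts1 averaged 71.0 ± 17.1 CPM in FNcKO and 159 ± 89.3 CPM in WT (SD, n = 3 each), a log2 fold change of -1.16 with a 95% interval of -1.94 to -0.38 (edgeR adjusted p = 0.465). FNcKO replicate 3, with 89.6 CPM, was just above WT replicate 3, with 88.5 CPM, so the groups overlapped. Without WT 48 h replicate 1 the log2 fold change of Adamts1 was -0.61. Adamts4 averaged 146 ± 49.3 CPM in FNcKO and 90.2 ± 23.6 CPM in WT, a log2 fold change of 0.69 with an interval of 0.11 to 1.28 (edgeR adjusted p = 0.774), and 0.45 without FNcKO replicate 2.

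The other 7 genes had adjusted p-values of 1 at 48 h. The log2 fold change, FNcKO over WT, was 0.61 for Adamts14 (interval -0.56 to 1.78) and 0.61 for Adamts15 (-0.12 to 1.34). It was -1.07 for Adam19 (-2.69 to 0.55) and -0.70 for Adamts2 (-1.56 to 0.16). Adamts5 had the narrowest interval, with 0.00 (-0.58 to 0.58), followed by Adamts9 with -0.19 (-0.82 to 0.44), and Adam12 had -0.21 (-1.28 to 0.86). Adam19 was at -0.081 without WT 48 h replicate 1, and Adamts2 at 0.082 without WT 48 h replicate 3. The median of the 9 was -0.19, beside 0.01 over all tested genes, and for 0 of 9 did the genotype groups not overlap (background 9.74%).

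At 0 h, 0 of 9 genes were called in FNcKO against WT by edgeR (background 0.144%, with 0.0755% higher and 0.0687% lower), 0 by DESeq2 and 0 at an unadjusted p under 0.05. Among all 14560 tested genes, 1603 had an unadjusted p under 0.05 at 0 h, and DESeq2 called 129 over all genes. Adamts2 was measured at 8.83, 7.96 and 9.89 CPM in FNcKO, all below the 10.8, 16.1 and 18.5 CPM in WT, with a log2 fold change of -0.77 (interval -1.64 to 0.10, edgeR adjusted p = 0.496). Adamts9 was measured at 13.7, 16.7 and 14.8 CPM in FNcKO, all below the 17.6, 30.6 and 19.9 CPM in WT, with -0.59 (-1.23 to 0.05, adjusted p = 0.486). They were the 2 of 9 genes whose groups did not overlap, where 16.6% of all tested genes had none. The log2 fold changes of the other 7 ran from -0.96 for Adamts14, where both groups were near zero counts, to 0.46 for Adam12, with adjusted p-values from 0.597 for Adamts1 to 0.888 for Adamts4.

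**Figure D4:**
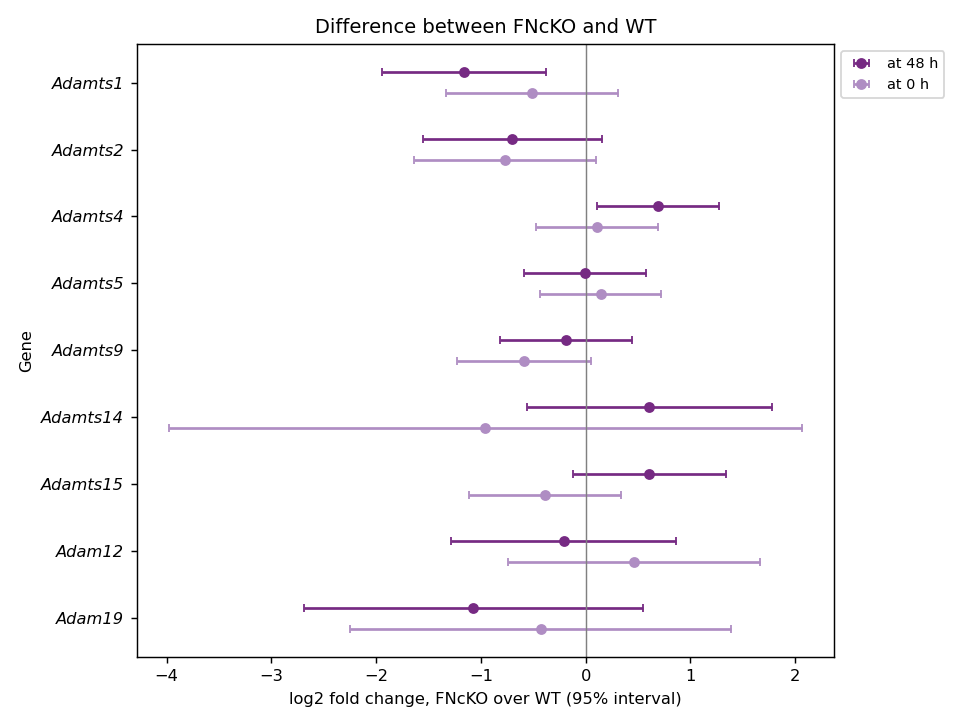
Log2 fold change of each gene between FNcKO and WT (horizontal axis, 95% interval as bars), at 48 h and at 0 h. The intervals of Adamts1 (-1.94 to -0.38) and Adamts4 (0.11 to 1.28) at 48 h did not cross zero, and their adjusted p-values were 0.465 and 0.774.

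Whether the 48 h response itself differed between FNcKO and WT was tested as an interaction. It was called for 0 of 9 genes, and for 0 of all 14560 genes tested with edgeR (background 0%), of which 735 had an unadjusted p under 0.05 and 28 were called by DESeq2. None of the 9 had an unadjusted p under 0.05 or was called by DESeq2. Adamts15, with a change of 0.18 in FNcKO and -0.81 in WT, had a difference of 1.00 (interval -0.03 to 2.02, unadjusted p = 0.056, edgeR adjusted p = 0.945). The difference was -0.65 (-1.77 to 0.48) for Adamts1, 1.56 (-1.72 to 4.84) for Adamts14 and -0.67 (-2.28 to 0.94) for Adam12. Without WT 48 h replicate 1 that of Adamts1 was -0.10. It was 0.58 (-0.25 to 1.41) for Adamts4, 0.40 (-0.49 to 1.30) for Adamts9, 0.07 (-1.14 to 1.29) for Adamts2, -0.15 (-0.97 to 0.67) for Adamts5 and -0.64 (-3.09 to 1.81) for Adam19.

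Within the 48 h groups, the library of lowest crystallin share was at the end of the range for several genes. With 3 libraries a group, any library is often at an end of the range, and the share over all genes was not computed. FNcKO replicate 3, with 1.47% crystallin counts, had the highest Adamts1 (89.6 CPM), Adam19 (9.51 CPM), Adamts9 (31.4 CPM), Adamts14 (33.8 CPM) and Adam12 (181 CPM) of its group. WT replicate 1, with 1.79%, had the highest Adamts1 (259 CPM), Adam19 (19.0 CPM), Adamts5 (119 CPM) and Adamts9 (29.7 CPM) of its group. These 2 libraries also had the lowest Adamts4 of their groups, 92.6 CPM in FNcKO and 63.1 CPM in WT, and the lowest Adamts15, 3.49 CPM in FNcKO and 2.57 CPM in WT. Without both, an alternative added after the data were seen, Adamts1, Adamts14 and Adam12 were again called higher at 48 h in each genotype. Adamts4 was then also called higher in FNcKO (log2 0.92, edgeR adjusted p = 0.0128), and Adamts5 was called lower in WT (log2 -0.97, edgeR adjusted p = 0.0052; range over all alternatives 0.0050 to 0.572). With the crystallin share as a covariate, Adam19 was at -0.52 in FNcKO and 0.31 in WT. The part of the crystallin share in these levels beyond those values was not tested.

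**Figure D5:**
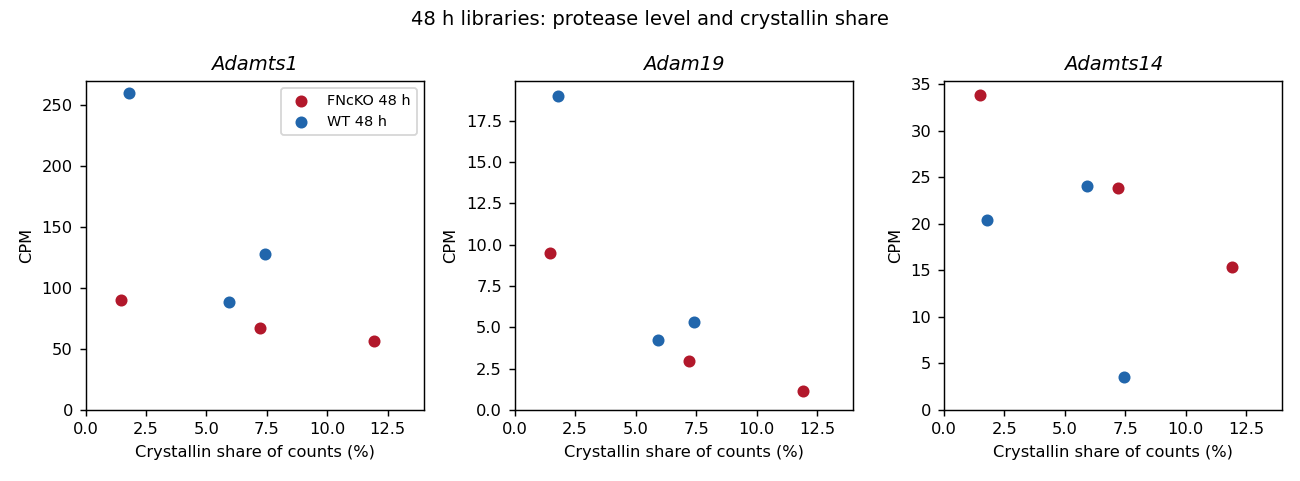
CPM of Adamts1, Adam19 and Adamts14 (vertical axes, from 0) against the share of counts in crystallin genes (%) in the 6 libraries of FNcKO 48 h and WT 48 h, 1 point a library. The 2 libraries under 2% crystallin, 1 of each genotype, had the highest Adamts1 and Adam19 of their groups, while Adamts14 was highest there in FNcKO only. With 3 libraries a group, such positions are common.

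Genes around the 9 proteases were followed in 8 lists with 55 genes in all, of which 48 were tested. Of these, 16 were higher and 6 lower at 48 h in FNcKO, and 15 were higher and 10 lower in WT, by edgeR at an adjusted p under 0.05 (background 14.9% higher and 9.9% lower in FNcKO, 19.1% higher and 13.5% lower in WT). Among the other ADAMTS proteases, 2 of 10 tested were higher and 0 lower in FNcKO, and 2 were higher and 2 lower in WT. Adamts7, which cuts cartilage oligomeric matrix protein, rose in both, with the same log2 fold change of 3.05 (SE 0.50 in FNcKO, 0.47 in WT). Adamts8 rose in FNcKO (5.25, SE 1.13) and had 2.20 (SE 1.02) in WT. Adamts16 had -0.09 (SE 0.99) in FNcKO and rose in WT (3.06, SE 0.89), but no difference of responses passed for either gene (edgeR adjusted p = 0.945 for both). Both values of Adamts8 depend on few 0 h counts, 4 over the FNcKO libraries and 10 over the WT libraries. Adamts16 had 17 counts over the FNcKO 0 h libraries and 23 over the WT 0 h libraries. Adamts6, a close relative of Adamts10, had -1.42 (SE 0.68) in FNcKO and fell by 2.11 (SE 0.69) in WT.

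ADAMTS-like proteins share the matrix-binding repeats but have no protease domain. Of 7 tested, 3 were higher and 2 lower in each genotype. Adamtsl3 rose by 6.29 (SE 0.99) in FNcKO and 4.67 (SE 0.78) in WT on the log2 scale, and both values depend on few 0 h counts, 2 over the FNcKO libraries and 12 over the WT libraries. Adamtsl2 fell by 2.1699 (SE 0.45) in FNcKO and by 2.53 (SE 0.44) in WT, and Papln, the papilin gene, fell by 2.26 (SE 0.56) in FNcKO and by 2.86 (SE 0.55) in WT. Adamtsl4, the lens dislocation gene, was named after its values were seen. It had 384, 488 and 329 CPM in FNcKO 48 h, 176, 133 and 142 CPM in FNcKO 0 h, 234, 393 and 369 CPM in WT 48 h and 132, 128 and 131 CPM in WT 0 h, with log2 fold changes of 1.41 (SE 0.22) in FNcKO and 1.35 (SE 0.22) in WT. Adamts10 and Adamts17, the proteases linked to lens dislocation, were named in the same way and had lower means at 48 h. Adamts10 had 33.9, 36.6 and 19.6 CPM in FNcKO 48 h, 47.9, 43.0 and 52.3 CPM in FNcKO 0 h, 33.3, 30.4 and 29.5 CPM in WT 48 h and 40.6, 75.9 and 81.4 CPM in WT 0 h. It fell in WT by 1.08 (SE 0.26, edgeR adjusted p = 0.0068) and had -0.67 (SE 0.26) in FNcKO, which did not pass. Adamts17 averaged 1.95 ± 2.23 CPM in FNcKO 48 h, 8.26 ± 3.79 CPM in FNcKO 0 h, 1.42 ± 1.02 CPM in WT 48 h and 4.77 ± 1.27 CPM in WT 0 h (SD, n = 3 each). Its log2 fold changes of -2.07 (SE 0.81) in FNcKO and -1.74 (SE 0.82) in WT did not pass. The 48 h and 0 h libraries did not overlap for either gene in either genotype.

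Of 9 other ADAM proteases tested, 2 were higher and 1 lower in FNcKO, and 1 was higher and 2 lower in WT. Adam8, a sheddase that is also abundant in leukocytes, had 12.9, 18.6 and 34.4 CPM in FNcKO 48 h, 1.45, 1.85 and 1.72 CPM in FNcKO 0 h, 74.8, 40.5 and 28.6 CPM in WT 48 h and 0.702, 2.55 and 1.204 CPM in WT 0 h. Its log2 fold change was 3.71 (SE 0.52) in FNcKO and 4.997 (SE 0.53) in WT, and within each 48 h group it was highest in the library with the highest leukocyte marker sum (108 CPM in FNcKO replicate 3 and 205 CPM in WT replicate 1). Adam15, a widely expressed membrane metalloproteinase, rose in FNcKO (1.095, SE 0.26) and had 0.66 (SE 0.25) in WT. Adam11, which has no protease activity, had -1.15 (SE 0.42) in FNcKO and fell in WT by 2.07 (SE 0.43). Adam22, a catalytically inactive member, fell in both genotypes, by 1.00 (SE 0.24) in FNcKO and by 1.66 (SE 0.24) in WT.

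Of 6 inhibitor and clearance genes tested, 1 was higher and 0 lower in FNcKO, and 2 were higher and 1 lower in WT. Timp1, a broad metalloproteinase inhibitor, had 182, 298 and 467 CPM in FNcKO 48 h, 22.8, 17.3 and 16.8 CPM in FNcKO 0 h, 403, 228 and 279.7 CPM in WT 48 h and 4.11, 3.77 and 6.50 CPM in WT 0 h. Its log2 fold change was 4.05 (SE 0.36) in FNcKO and 5.99 (SE 0.40) in WT. At 0 h every FNcKO library was above every WT library, with a log2 fold change of 1.99 (SE 0.36) that did not pass (edgeR adjusted p = 0.0632). Timp3, the inhibitor of ADAMTS4 and ADAMTS5, stood at 684 ± 105 CPM in FNcKO 48 h, 1043 ± 194 CPM in FNcKO 0 h, 656 ± 56.0 CPM in WT 48 h and 971 ± 172 CPM in WT 0 h (SD, n = 3 each). Its log2 fold changes of -0.61 (edgeR adjusted p = 0.0552) in FNcKO and -0.57 (adjusted p = 0.0600) in WT did not pass. A2m, a protease trap of plasma, had 1.26 (SE 0.61) in FNcKO and rose in WT (2.13, SE 0.62). Reck, a membrane-anchored inhibitor, had -0.62 (SE 0.23) in FNcKO and fell in WT by 0.89 (SE 0.23). Of 6 activating and glycosylating enzymes, 2 were higher and 1 lower in each genotype: Furin, the convertase, rose by 1.22 (SE 0.17) in FNcKO and 1.27 (SE 0.17) in WT, and Pofut2, which adds fucose to thrombospondin repeats, rose by 0.74 (SE 0.15) in FNcKO and 1.16 (SE 0.15) in WT. The lower ones were also proprotein convertases: Pcsk5 fell in FNcKO by 1.52 (SE 0.39) and had -0.26 (SE 0.38) in WT, and Pcsk6 had -0.43 (SE 0.57) in FNcKO and fell in WT by 1.69 (SE 0.57).

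For the substrates, the proteoglycan list had 2 of 4 genes tested, with 0 called in FNcKO and 1 lower in WT. Vcan, the versican gene, had 242, 282 and 334 CPM in FNcKO 48 h, 452, 594 and 246 CPM in FNcKO 0 h, 405, 235 and 191 CPM in WT 48 h and 497, 689.9 and 1082 CPM in WT 0 h. Its log2 fold change was -0.59 (SE 0.37, edgeR adjusted p = 0.263) in FNcKO and -1.45 (SE 0.37, adjusted p = 0.0103) in WT, and the difference of responses, 0.86 (SE 0.52), did not pass (adjusted p = 0.945). Of 4 procollagen genes, 3 were higher and 1 lower in FNcKO, and 2 were higher and 1 lower in WT. Col1a1 rose by 3.03 (SE 0.44) in FNcKO and 6.38 (SE 0.50) in WT. Col3a1 rose by 4.24 (SE 0.58) in FNcKO and 6.42 (SE 0.64) in WT. Its 0 h counts were few, 31 over the FNcKO libraries and 19 over the WT libraries. Col2a1 fell by 1.35 (SE 0.23) in FNcKO and by 2.64 (SE 0.24) in WT. At 48 h Col1a1 had 45.1, 50.2 and 56.5 CPM in FNcKO, against 524, 185 and 276 CPM in WT, a log2 fold change of -2.70 (SE 0.41, edgeR adjusted p = 0.0265), and was the only 1 of the 48 genes tested to pass the threshold between genotypes at either time. Adamts14 itself had means of 24.3 ± 9.26 CPM in FNcKO 48 h and 15.96 ± 10.95 CPM in WT 48 h (SD, n = 3 each).

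Of 4 growth factor substrates of Adam12 and Adam19, 3 were higher and 1 lower in FNcKO, and 3 were higher and 0 lower in WT. Igfbp3, a binding protein of insulin-like growth factors, rose by 6.83 (SE 0.79) in FNcKO and 7.23 (SE 0.82) in WT. Nrg1, the neuregulin gene, rose by 3.43 (SE 0.75) in FNcKO and 3.07 (SE 0.72) in WT, with few 0 h counts. There were 18 over the FNcKO libraries and 26 over the WT libraries. Hbegf rose by 1.38 (SE 0.31) in FNcKO and 1.80 (SE 0.31) in WT. Igfbp5 fell in FNcKO by 2.08 (SE 0.55) and had -1.13 (SE 0.54) in WT.

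For each of the 9, the gene outside the set with the most similar profile was the one with the highest Pearson correlation of log2 CPM over the 12 libraries, among 14551 genes. These are descriptions over 12 libraries that share the time and genotype groups. Adamts1 paired with Tgm1, a transglutaminase gene (r = 0.993), Adam12 with Fhl3 (r = 0.992) and Adamts14 with Bub1b, a mitotic checkpoint kinase gene (r = 0.990). Tgm1 averaged 9.45 ± 3.08 CPM in FNcKO 48 h, 1.02 ± 0.542 CPM in FNcKO 0 h, 35.1 ± 25.2 CPM in WT 48 h and 2.00 ± 0.143 CPM in WT 0 h (SD, n = 3 each), so its WT 48 h mean was the highest, as for Adamts1. Bub1b averaged 51.1 ± 13.96 CPM in FNcKO 48 h, 5.22 ± 0.515 CPM in FNcKO 0 h, 45.5 ± 16.6 CPM in WT 48 h and 6.81 ± 0.920 CPM in WT 0 h. Fhl3, a LIM domain gene, averaged 25.5 ± 13.5 CPM in FNcKO 48 h, 1.52 ± 0.710 CPM in FNcKO 0 h, 21.3 ± 9.77 CPM in WT 48 h and 1.11 ± 0.274 CPM in WT 0 h. Adam19 paired with Krt80 (r = 0.951), Adamts5 with Slc22a15 (r = 0.946), Adamts9 with A230050P20Rik (r = 0.915), Adamts15 with Dlg3 (r = 0.908), Adamts4 with Itih2 (r = 0.860) and Adamts2 with Rcbtb1 (r = 0.803). None of the 9 closest genes was shared between members.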

How the data were processed

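Whole-gene RNA-seq read counts of 12 libraries were used as the authors deposited them. The submitters' processing notes name, without roles, the mm10 build, HTSeq 0.6.1p1, edgeR 3.16.5, SAMtools 1.4 and TopHat2 2.1.0. The deposited RPKM column equalled the count divided by the deposited length and the library total and was used only for this check. That length exceeded the longest annotated coding sequence of every member, so it is called gene length.

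All genes were fitted with edgeR 4.0.16 in R 4.3.3: filterByExpr, TMM factors (0.754 to 1.17), robust quasi-likelihood fit of 4 group means, contrasts, and Benjamini-Hochberg adjustment over 14560 genes, with a threshold of 0.05. SE is the log2 fold change divided by the square root of F, and 95% intervals use it. CPM are TMM-scaled. The fit was also run on simulated data, and the outcome is not given here. DESeq2 1.42.0, other scalings, filters and samples were alternatives, 1 of them added after seeing the data.

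Members and gene lists were chosen with earlier results of these data known. All 9 members are named. From each list and each genotype, at most 3 genes past the threshold with the largest absolute log2 fold change at 48 h against 0 h are named, plus Vcan, Timp1 and Timp3. Adamtsl4, Adamts10 and Adamts17 were named after their values were seen. In the combined table, the column named for WT 0 h replicate 1 was identical to the file of FNcKO 0 h replicate 1, so the per-library files were used. P-values set each difference against the spread between libraries, which the main edgeR fit estimated over all 12 libraries.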

Additional observations from a re-analysis of the deposited data

How the results depend on the processing

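Adamts1, Adamts14 and Adam12 kept their direction and their calls at 48 h against 0 h under all 23 alternatives in both genotypes (highest adjusted p 0.0212 in FNcKO and 0.0067 in WT), and no member was called between genotypes or in the difference of responses under any alternative. The causes of the changes given next were not tested. With total counts as the scale, the median of all genes was 0.29 in FNcKO and 0.23 in WT at 48 h against 0 h, -0.07 at 48 h and -0.15 at 0 h between genotypes.

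Adam19 in WT passed under 9 alternatives, among them DESeq2 (adjusted p = 0.0166), and had its lowest value, 0.31, with the crystallin covariate. Adamts4 in FNcKO passed under 4: without both 48 h libraries of lowest crystallin share (0.92), with the crystallin covariate (1.08), with total counts (0.92) and without FNcKO 48 h replicate 3 (0.92). Adamts5 was called lower without WT 48 h replicate 1, at -0.62 in FNcKO and -0.95 in WT, which makes 1 member lower in each. In FNcKO the value did not move and its SE was smaller.

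Signs turned as follows. Without both 48 h libraries of lowest crystallin share, Adamts5 was 0.48 between genotypes at 48 h and 0.34 in the difference of responses, Adamts2 was -0.14 in that difference, and 1 member was lower in WT. Without both first 0 h libraries, Adamts4 was -0.11 between genotypes at 0 h. With the combined table's column, Adamts4 was -0.078 over time in WT and -0.22 between genotypes at 0 h, Adam19 was 0.35 and Adamts5 -0.025 there, and Adamts5 was 0.022 in the difference. With the crystallin covariate, Adam19 was -0.52 in FNcKO and Adamts9 -0.27 in WT over time, and Adamts5 was 0.12 between genotypes at 48 h. With the replicate block it was 0.060, and with total counts Adamts4 was -0.022 at 0 h.

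Counts over all genes moved as follows. DESeq2 called 7 higher and 21 lower in the difference, 27 and 92 between genotypes at 48 h, and 64 and 65 at 0 h. The stricter count filter gave 3 higher at 48 h between genotypes. Without both low-crystallin libraries, 847 were lower over time in FNcKO, and FNcKO against WT gave 2 higher and 12 lower at 48 h and 18 and 21 at 0 h. Without both first 0 h libraries, 1438 were higher and 861 lower in FNcKO over time, and FNcKO against WT gave 2 and 12 at 48 h and 0 and 2 at 0 h. The combined column gave 1 higher and 8 lower between genotypes at 48 h, and 0 and 0 at 0 h. The crystallin covariate gave 993 higher and 345 lower in FNcKO and 1308 and 598 in WT over time, 22 and 23 at 0 h for FNcKO against WT, and 2 lower in the difference. With only the groups compared, 950 were lower in FNcKO over time, 0 higher and 7 lower between genotypes at 48 h, and 18 higher at 0 h. Total counts gave 3408 higher and 727 lower in FNcKO, 1211 lower in WT, 1 higher between genotypes at 48 h and 3 higher at 0 h.

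Leaving out 1 library at a time gave 763 to 1730 genes lower in FNcKO and 1198 to 2284 in WT over time, 0 to 1 members lower in each, 1 to 7 higher and 9 to 41 lower between genotypes at 48 h, 0 to 14 and 2 to 15 at 0 h, and 0 to 1 lower in the difference. Over time in WT, Adamts2 ran from -0.54 to 0.57 and Adamts4 from -0.033 to 0.30. Between genotypes at 48 h, Adam12 ran from -0.57 to 0.14, Adamts2 from -1.03 to 0.082, Adamts5 from -0.24 to 0.47 and Adamts9 from -0.52 to 0.052. At 0 h, Adam19 ran from -1.02 to 0.032 and Adamts4 from -0.036 to 0.31. In the difference, Adam19 ran from -1.79 to 0.34, Adamts2 from -0.26 to 0.85 and Adamts5 from -0.39 to 0.33.

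Replicate numbers recur in the 4 groups. The 18 same-number pairs of libraries had correlations of their deviations from -0.474 to 0.291, with 4 over 0.1. The 36 other pairs between groups ran from -0.288 to 0.447, with 11 over 0.1. With 3 libraries a group, these values cannot show whether libraries of the same number shared a batch, and the labels do not say. Libraries were therefore treated as unpaired. With the replicate block, 3 members stayed higher and 0 lower over time in each genotype. It gave 3 genes higher between genotypes at 48 h, 5 lower at 0 h and 1 lower in the difference.

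With 3 libraries a group, Adamts14 and Adam19 rested on few 0 h counts, and 3 counts corresponded to 0.285 to 0.430 CPM.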
